A study of Mus musculus with 20 samples.

Results

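The 8 genes examined here mark the neurons and glia of the gut wall, and they were followed in the distal colon (DC) of 20 mice fed a Western-style diet with or without resistant potato starch (RPS). They were chosen by symbol: the general neuronal genes Elavl4 and Uchl1, the receptor gene Ret, the transmitter genes Nos1, Vip and Chat, and the glial genes S100b and Sox10. Each symbol matched 1 of the 26619 gene identifiers in the count table, and all 8 genes were among the 17893 genes that passed the filter on low counts. The mice were C57BL/6 animals raised for 6 weeks on a Total Western Diet (TWD), which then held 0, 2, 5 or 10% RPS by weight, a starch labelled raw potato starch, during 3 more weeks (n = 5 mice per diet). The 0% RPS mice ate the TWD throughout and are the controls of every comparison. The mRNA came from a whole piece of colon wall, so that epithelium, muscle, nerve and immune cells contributed to each library, and a lower level from fewer cells of a type cannot be told apart from a lower level per cell.

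The enteric nervous system lies in the wall of the gut as nets of small ganglia between the muscle layers and under the mucosa, and it drives motility, secretion and blood flow. Its neurons and glia descend from neural crest cells that colonise the gut under the guidance of the receptor tyrosine kinase RET, and the transcription factor SOX10 is kept by the glia and lost by the neurons. Nitric oxide from NOS1 and the peptide VIP relax the muscle, whereas acetylcholine made by CHAT contracts it. The enteric glia surround the neurons and carry the calcium-binding protein S100B.

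The libraries held 18.4 to 35.0 megacounts (M) each, with 31.3 to 35.0 M at 0% RPS and 18.4 to 26.6 M at 10% RPS, and the smallest belonged to mouse RS10_727 of the 10% RPS group. Values are CPM (counts per megacount of the scaled library size), and 3 counts, taken as the floor, correspond to 0.085 to 0.163 CPM. The defining markers of the tissue were present in every library, since no gene of the smooth muscle or epithelium lists was at 0. The diets were taken from the description label, and for 3 mice the treatment label differs: it gives 2% in place of 5% for RS10_717, 5% in place of 10% for RS10_725, and 10% in place of 2% for RS10_748. Mouse RS10_721 (5% RPS) and mouse RS10_784 (10% RPS) carried pancreatic enzyme transcripts, which summed to 4473 and 399 CPM over the marker list against 11.5 CPM or less in the other mice.

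The 250 bases before the annotated start of Vip and S100b are shown because these genes varied with different members from mouse to mouse, Vip with the other transmitter genes, Elavl4 and Ret, and S100b with Sox10. They are written 5′ to 3′ along the strand of the gene from the GRCm39 assembly, with starts from the GENCODE vM39 annotation. Capitals mark a match to a searched motif.
Vip, chr10:5588936-5589185, plus strand: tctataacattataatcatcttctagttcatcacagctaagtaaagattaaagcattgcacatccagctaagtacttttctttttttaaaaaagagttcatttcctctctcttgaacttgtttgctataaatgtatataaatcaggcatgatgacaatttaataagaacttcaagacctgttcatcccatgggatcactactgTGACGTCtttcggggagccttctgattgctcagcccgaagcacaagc
S100b, chr10:76089234-76089483, plus strand: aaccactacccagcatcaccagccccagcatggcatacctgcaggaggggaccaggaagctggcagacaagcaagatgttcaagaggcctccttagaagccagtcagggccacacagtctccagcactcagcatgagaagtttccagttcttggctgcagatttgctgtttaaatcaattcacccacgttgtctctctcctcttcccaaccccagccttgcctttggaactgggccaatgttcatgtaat
The Vip window holds TGACGTC, the core of the cAMP response element that is known from this promoter, at position -47 from the start, a motif found on either strand in 3.12% of 17810 windows of this length. This core was added to the search after the full 8-base element TGACGTCA, present in 1.79% of windows, had matched none of the 8 genes, and the 2 motifs overlap. Neither SOX core, ACAAAG (14.4% of windows) or ACAATG (7.42%), occurred in the S100b window, and ACAATG occurred once among the 8 genes, at position -87 of Nos1. The GC content was 52.4% in the S100b window and 36.4% in the Vip window, with a median of 55.6% over all windows. A few bases next to the start in the S100b window lie in an alternative first exon.

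The levels of the general neuronal genes overlapped between all diets. Elavl4 (ENSMUSG00000028546, chromosome 4, 110060810 to 110209142, minus strand in GRCm39) encodes an RNA-binding protein of the Hu family, the target of the antibodies used to stain enteric neurons. Its levels were 7.70, 7.21, 8.35, 6.72 and 5.09 CPM in the 0% RPS mice and 7.94, 12.7, 5.71, 6.91 and 5.96 CPM in the 10% RPS mice. The highest of these values belonged to mouse RS10_727, and the other 10% RPS mice lay within the control range. At 2% RPS Elavl4 was 7.89 ± 1.54 CPM (SD, n = 5), and at 5% RPS it was 7.23 ± 1.80 CPM.

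Uchl1 (ENSMUSG00000029223, chromosome 5, 66832748 to 66845009, plus strand) encodes the neuronal ubiquitin hydrolase known as PGP9.5. It measured 32.4, 22.1, 29.1, 26.9 and 32.8 CPM at 0% RPS and 25.0, 35.7, 21.0, 22.8 and 21.4 CPM at 10% RPS. Mouse RS10_727 was above every control, and 2 of the other 4 mice at 10% RPS were below the lowest control. The means were 28.6 ± 4.37, 30.2 ± 3.86, 27.9 ± 2.21 and 25.2 ± 6.10 CPM at 0, 2, 5 and 10% RPS. The antisense gene Uchl1os, which shares 555 exon bases with Uchl1, held at most 0.198 CPM.

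Ret (ENSMUSG00000030110, chromosome 6, 118128706 to 118174769, minus strand), the receptor for glial cell line-derived neurotrophic factors, was the member whose diet means lay closest together. Its levels were 21.3, 15.1, 20.5, 15.8 and 14.5 CPM at 0% RPS and 19.4, 23.8, 15.5, 17.6 and 14.8 CPM at 10% RPS. The means at 0, 2, 5 and 10% RPS were 17.4 ± 3.20, 18.0 ± 2.15, 18.1 ± 1.92 and 18.2 ± 3.58 CPM, and every 10% RPS mouse except RS10_727 lay within the control range.

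The transmitter genes showed the same spread within each diet. Nos1 (ENSMUSG00000029361, chromosome 5, 117918971 to 118096905, plus strand), the neuronal nitric oxide synthase of the inhibitory motor neurons, measured 35.8, 21.8, 34.3, 31.8 and 20.7 CPM at 0% RPS and 28.2, 40.6, 22.3, 24.6 and 22.8 CPM at 10% RPS. No 10% RPS mouse was below the lowest control, and RS10_727 was again above the highest. At 2 and 5% RPS the means were 31.3 ± 6.62 and 29.7 ± 3.44 CPM.

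Vip (ENSMUSG00000019772, chromosome 10, 5589186 to 5599956, plus strand), which encodes vasoactive intestinal peptide, a relaxing and secretory transmitter, had 51.3, 47.9, 58.6, 32.6 and 43.9 CPM at 0% RPS. It had 57.2, 58.3, 45.4, 49.9 and 44.0 CPM at 10% RPS, and all 5 mice lay within the control range. The highest Vip level of the study, 67.8 CPM, was in mouse RS10_721 at 5% RPS, where the mean was 48.5 ± 11.3 CPM, and at 2% RPS the mean was 54.1 ± 7.23 CPM.

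Chat (ENSMUSG00000021919, chromosome 14, 32129369 to 32187946, minus strand), the enzyme that makes acetylcholine, had the lowest level of the 8 genes and rested on 23 to 85 counts per mouse. Its levels were 1.93, 1.26, 1.68, 1.87 and 1.45 CPM at 0% RPS and 1.90, 2.77, 1.62, 1.90 and 1.22 CPM at 10% RPS. The groups overlapped, with 1 mouse at 10% RPS below and 1 above all controls. At 5% RPS the values spread from 1.03 to 3.05 CPM, and the highest was mouse RS10_721. Chat is also made by tuft cells of the epithelium, and across the 20 mice its log2 CPM had a Pearson r of 0.69 with the mean log2 CPM of the tuft cell list (Spearman rho 0.60) and of 0.55 with the pan-neuronal list. Without the 2 mice farthest from the median of the list, r was 0.39 with the tuft cell list and 0.33 with the pan-neuronal list. Much of both values thus rested on such mice. After the diet means were removed, r was 0.68 with the tuft cell list and 0.67 with the pan-neuronal list. The r of Chat with the mean of the adipose list was 0.73, or 0.74 after the diet means were removed. Without the 2 mice farthest from the median of the adipose list it was 0.48. Vip had an r of 0.66 with the tuft cell list, or 0.51 without the 2 mice farthest from the median of that list. The part of tuft or fat cells in these levels was not tested.

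The glial genes showed another pattern: their levels at 10% RPS lay mostly below those of the controls. S100b (ENSMUSG00000033208, chromosome 10, 76085090 to 76097159, plus strand) measured 5.07, 4.90, 4.87, 4.64 and 5.36 CPM in the 0% RPS mice. It measured 5.71, 5.43, 5.53, 5.22 and 5.93 CPM at 2% RPS, with 4.95, 4.73, 5.44, 4.02 and 5.09 CPM at 5% RPS. At 10% RPS it measured 4.22, 5.33, 2.43, 2.48 and 2.94 CPM. Thus 4 of the 5 mice at 10% RPS were below the lowest control, 3 of them at less than 3 CPM, and the exception was mouse RS10_727, while 4 of 5 mice at 2% RPS were above the highest control. The mean was 4.97 ± 0.267 CPM (SD, n = 5) in the controls, 3.48 ± 1.26 CPM at 10% RPS, and 3.02 ± 0.832 CPM (n = 4) at that level without RS10_727.

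Sox10 (ENSMUSG00000033006, chromosome 15, 79039108 to 79049469, minus strand) measured 8.27, 6.17, 7.95, 6.75 and 6.50 CPM in the 0% RPS mice. It measured 10.4, 8.14, 6.89, 7.79 and 9.17 CPM at 2% RPS, with 7.30, 7.25, 9.23, 7.04 and 10.98 CPM at 5% RPS. At 10% RPS it measured 5.59, 8.16, 4.31, 5.00 and 5.37 CPM. The 10% RPS mice were again low except for RS10_727: 4 of 5 were below the lowest control, and the other was within the control range. The mean was 7.13 ± 0.926 CPM at 0% RPS and 5.68 ± 1.46 CPM at 10% RPS. Of all tested genes, 5.37% had at least 4 of 5 mice at 10% RPS below the lowest control, against these 2 of 8 members, and 2.28% had groups of 5 and 5 mice without overlap in either direction, against 0 members.

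**Figure D1:**
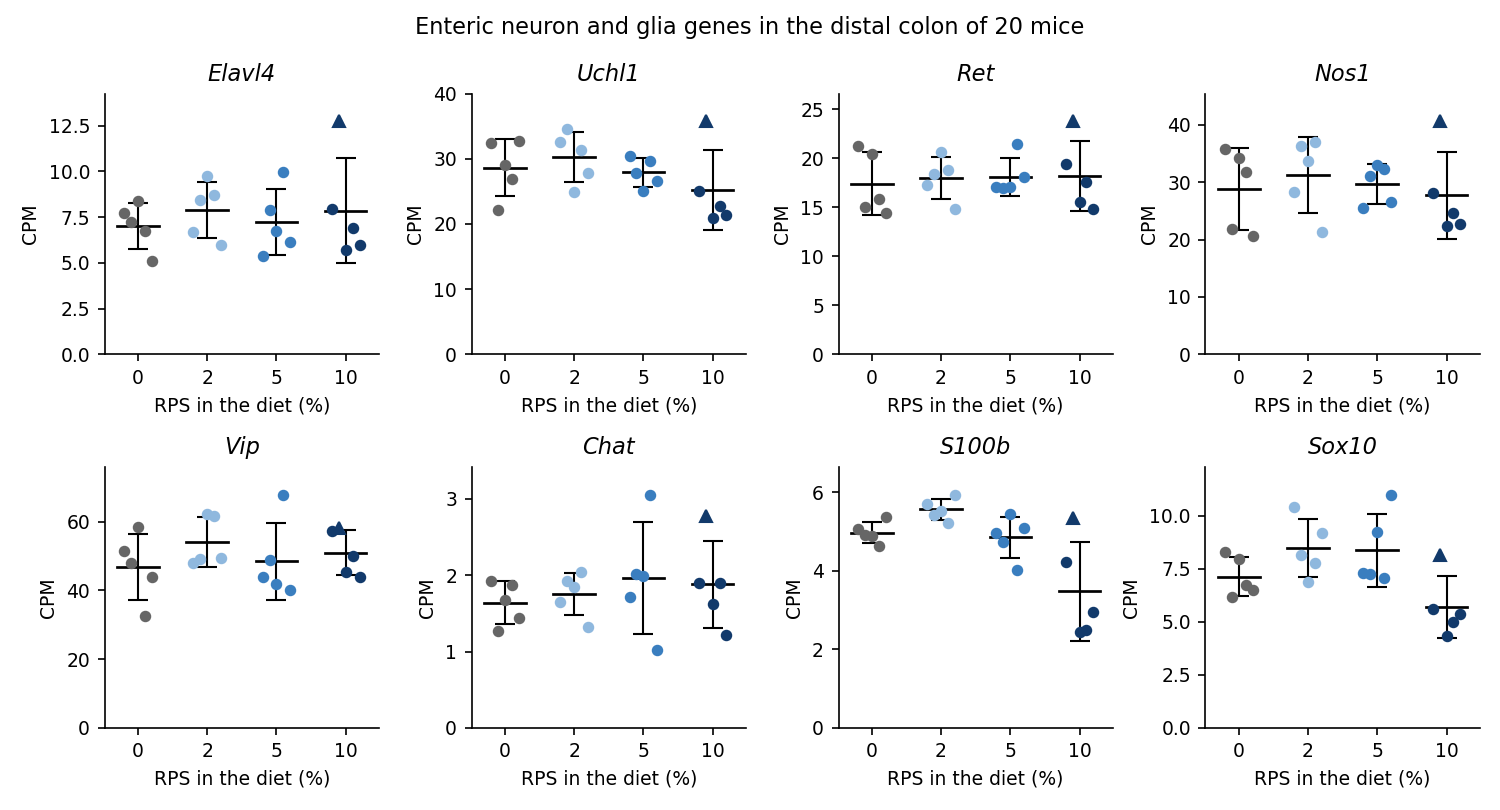
CPM of each of the 8 genes (y axis, from 0) against the RPS content of the diet in percent (x axis), with 1 point per mouse, the mean as a line and the SD as an error bar (n = 5 per diet), and mouse RS10_727 as a triangle. In the S100b and Sox10 panels 4 of the 5 mice at 10% RPS lie below every 0% RPS mouse, while in the other panels the diets overlap.

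Whether any of these genes differed from the 0% RPS mice was tested with the quasi-likelihood F-test of edgeR over all genes, with calls at a Benjamini-Hochberg adjusted p of at most 0.05 and a fold change of at least 1.5. No member was called at 10% RPS, where 0.0391% of all tested genes were called, or at 5 or 2% RPS, where 0% were. At an unadjusted p under 0.05 there was 1 member at 10% RPS, S100b, against 7.87% of all genes that were lower at this level, and 0 members at 5 and 2% RPS, against 9.19% and 1.41% of all genes in either direction. DESeq2 called 0 members at each level, with 1.24%, 0.195% and 0.00386% of the genes it tested called at 10, 5 and 2% RPS.

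S100b had a log2 fold change of -0.52 ± 0.17 (SE) at 10% RPS, with a 95% interval from -0.87 to -0.17, an unadjusted p of 0.00544 and an adjusted p of 0.149 by edgeR. By DESeq2 the adjusted p was 0.0455, but the fold change of -0.52 on the log2 scale fell short of 1.5-fold. Sox10 had a log2 fold change of -0.33 ± 0.17, with an interval from -0.67 to 0.01 and an adjusted p of 0.344. The 2 genes were on the other side of 0 at 2% RPS, with log2 fold changes of 0.16 for S100b and 0.25 for Sox10, and at 5% RPS they had -0.04 and 0.23.

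The neuronal members gave small differences with intervals on both sides of 0 at every level. At 10% RPS the log2 fold changes were 0.16 for Elavl4, -0.19 for Uchl1, 0.06 for Ret, -0.06 for Nos1, 0.12 for Vip and 0.19 for Chat, with adjusted p-values by edgeR from 0.529 for Uchl1 upward. The interval for Ret reached from -0.21 to 0.34, which leaves out a fall or rise of 1.5-fold, whereas that for Chat reached from -0.31 to 0.69 and does not leave out a rise of this size. At 5% RPS the largest difference among the 8 members was that of Chat, 0.26 ± 0.24, and at 2% RPS that of Sox10, 0.25 ± 0.16.

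**Figure D2:**
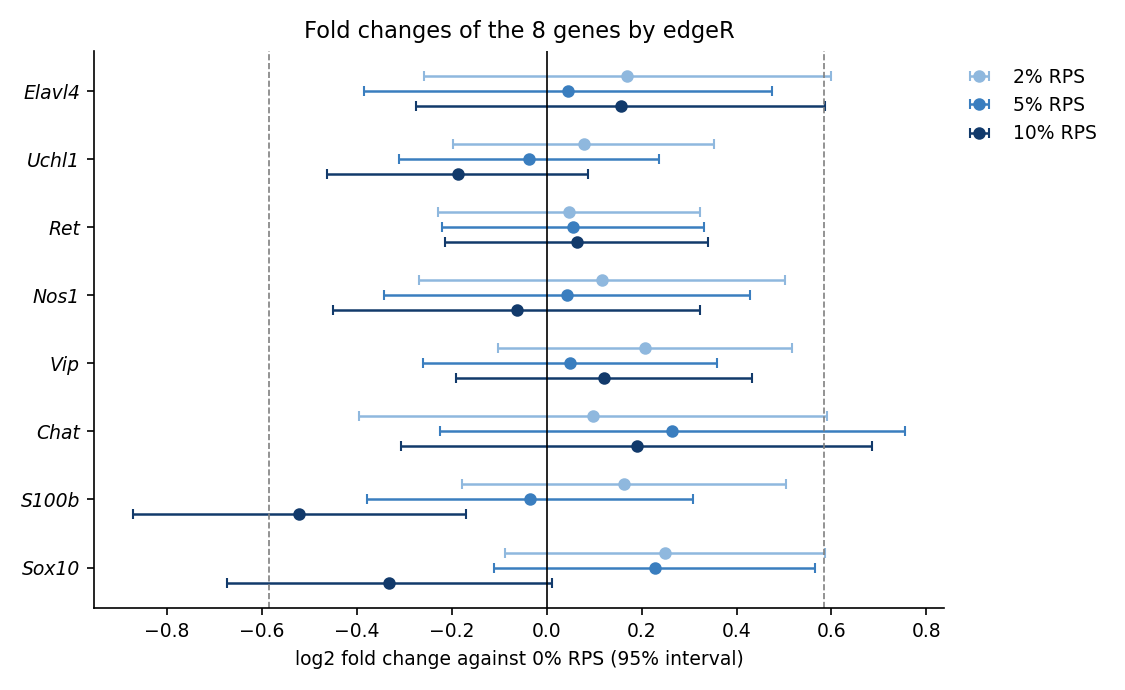
The log2 fold change against 0% RPS (x axis) of the 8 genes (y axis) at 2, 5 and 10% RPS, as edgeR estimates (points) with 95% intervals (bars); dashed lines mark 1.5-fold. The only interval that leaves out 0 is that of S100b at 10% RPS, from -0.87 to -0.17.

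A linear trend over RPS percent asked whether the genes moved with the dose. By edgeR it called 0 members, against 2.1% of all genes, and 2 members, S100b and Sox10, had a negative slope with an unadjusted p under 0.05, against 10.1% of all genes. The slope of S100b was -0.059 ± 0.017 log2 units per percent RPS (unadjusted p 0.00197, adjusted p 0.0642 by edgeR), and DESeq2, which called 5.61% of the genes it tested, called this 1 member with an adjusted p of 0.0122. The slope of Sox10 was -0.04 ± 0.019 (adjusted p 0.238 by edgeR). The levels did not descend step by step, since both genes had a higher mean at 2% RPS than at 0% RPS. A test of any difference among the 4 diets by edgeR called 0 members, against 0.0727% of all genes, and S100b and Sox10 were the 2 members with an unadjusted p under 0.05, against 10.6% of all genes.

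Mouse RS10_727 decided whether S100b was called. Without it the log2 fold change of S100b at 10% RPS was -0.71 ± 0.15 with an adjusted p of 0.0236 by edgeR, a call, as were the trend (adjusted p 0.0123) and the test of any difference (adjusted p 0.0393). The same fit called 1.04% of all genes at 10% RPS and 6.34% in the trend, so that more genes were called in that fit as a whole. Sox10 reached -0.48 ± 0.15 with an adjusted p of 0.09. Without the control mouse RS10_703 the trend of S100b had an adjusted p of 0.0491, also a call, in a fit that called 4.21% of all genes in the trend. When mice were grouped by the treatment label instead, the log2 fold change of S100b was -0.38 with an adjusted p of 0.512, and that of Sox10 was -0.16.

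The share of the variance of log2 CPM that lay between diets ordered the members in the same way. It was 58.0% for S100b and 50.2% for Sox10, 20.8% for Uchl1 and between 1.97% (Ret) and 12.2% (Vip) for the other 5 members, with a median of 16.3% over all tested genes. As a description, 99.1% of the tested genes had a lower share than S100b and 97.4% a lower share than Sox10. The SD within diets on the log2 scale was 0.26 for both glial genes, 0.22 for Ret and Uchl1 and 0.38 for Chat.

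Across the 20 mice the members formed groups that varied together. The Pearson r of log2 CPM lay between 0.41 and 0.84 (median 0.71) in the 10 pairs of Elavl4, Ret, Nos1, Vip and Chat. The closest pairs were Elavl4 with Ret, at 0.84 (Spearman rho 0.81), and Ret with Nos1, at 0.82 (rho 0.80). S100b and Sox10 had an r of 0.81 with each other (rho 0.73), 0.68 after the diet means were removed, and between -0.04 and 0.40 (median 0.17) with those 5 neuronal genes. With the mean log2 CPM of the wider pan-neuronal list, however, S100b and Sox10 had r of 0.70 and 0.62, or 0.62 and 0.51 after the diet means were removed. Nos1 had an r of 0.57 with the mean of the glial list. Without the 2 mice farthest from the median of Nos1, its r was 0.63 with S100b and 0.54 with Sox10. With the 2 farthest mice left out in the same way, the other pairs between those 5 genes and the glial members had r of 0.27 or lower. The 10 pairs among those 5 genes then had r from 0.41 to 0.79. Among the members, Uchl1 had r of 0.67 and 0.62 with S100b and Sox10 and of 0.23 to 0.54 with the other 5. With the mean of the pan-neuronal list its r was 0.88, or 0.85 without the 2 mice farthest from the median of that list. With the mean of the glial list it was 0.55, or 0.32 without the 2 mice farthest from the median of the glial list. These values are descriptions over libraries of unequal depth, in which mouse RS10_727 was high for most neuronal genes.

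**Figure D3:**
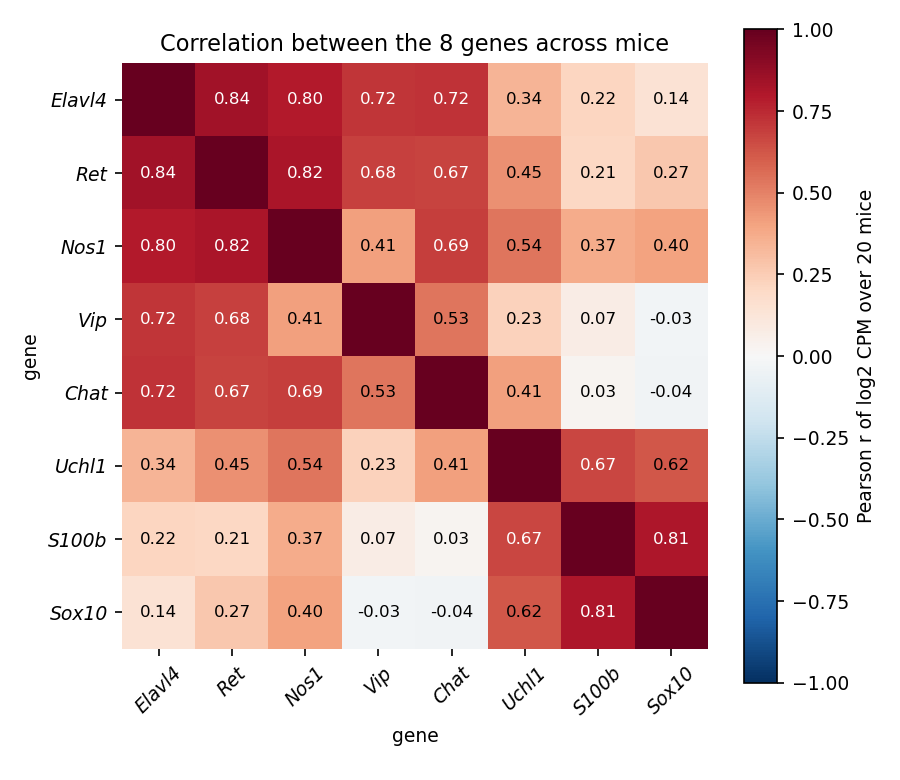
Pearson r of log2 CPM over the 20 mice for each pair of the 8 genes (both axes list the genes, colour and number give r). The 5 genes Elavl4, Ret, Nos1, Vip and Chat form a block of r from 0.41 to 0.84, S100b and Sox10 form a pair at 0.81, and the values between these groups lie between -0.04 and 0.40.

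Because a piece of gut wall can hold more or less nerve tissue, each glial gene was also set against each neuronal gene of the same mouse. This comparison was chosen after the values had been seen and is a description. The log2 ratio of S100b to Elavl4 was -0.48 ± 0.32 at 0% RPS and -1.18 ± 0.22 at 10% RPS, and all 5 mice at 10% RPS, RS10_727 included at -1.26, were below the lowest control at -0.78. The log2 ratio of Sox10 to Ret was -1.28 ± 0.09 at 0% RPS and -1.69 ± 0.18 at 10% RPS, and again all 5 mice were below the lowest control. At 5% RPS the mouse with the lowest value of both ratios was RS10_721.

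Over all 12 pairs of a glial with a neuronal member, the mean log2 ratio was lower at 10% RPS in 12 pairs, by between 0.15 and 0.75. In 4 pairs (S100b to Elavl4, Ret and Chat, and Sox10 to Ret) all 5 mice at 10% RPS were below the lowest control, and in 11 pairs at least 4 mice were. The exception was Sox10 to Uchl1, where 0 mice were. The share of all tested genes with at least 4 mice below was not taken, so that count has no background. All 12 pairs reuse the same 2 glial genes and are not separate observations. Of all tested genes, 0.458%, 0.648% and 0.85% had a ratio to Elavl4, Ret and Chat that was lower in all 5 mice, and 0.162%, 0.129% and 0.799% had such a ratio to Uchl1, Nos1 and Vip. Only members served as neuronal genes in these ratios. Of the 18 pan-neuronal list genes, Stmn2, Prph and Rtn1 also had 4 of 5 mice at 10% RPS below the lowest control. The others of that list had 3 or fewer, and the share over all tested genes was 5.37%. Ratios to list genes were not taken, so the lower ratios hold for the neuronal members only. The ratio of the inhibitory gene Nos1 to the cholinergic gene Chat was 4.12 ± 0.19 on the log2 scale at 0% RPS and 3.89 ± 0.20 at 10% RPS, and the 2 groups overlapped.

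**Figure D4:**
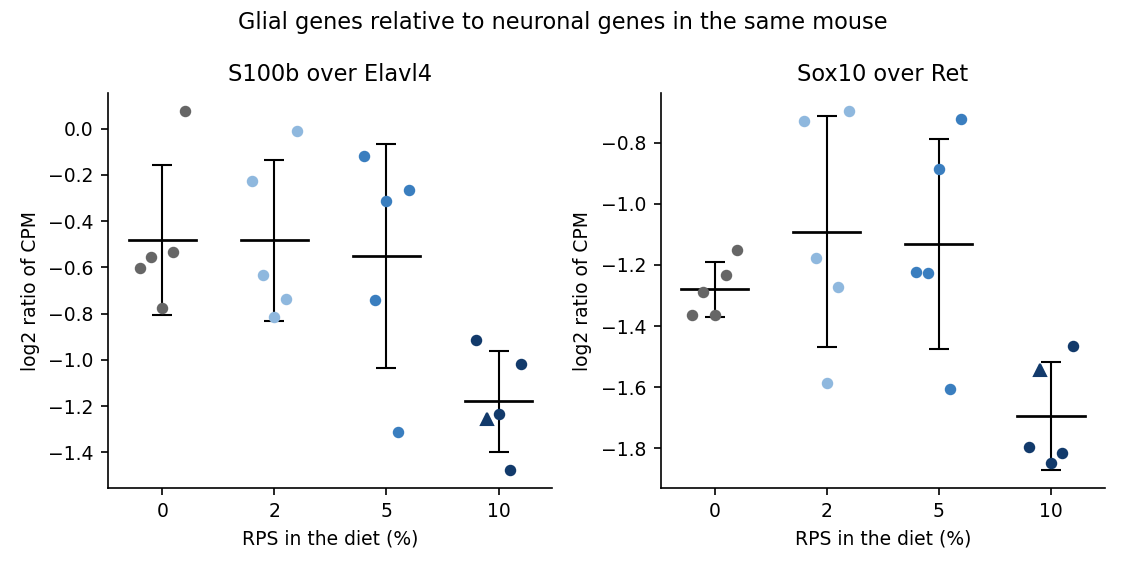
The log2 ratio of CPM within a mouse (y axis) of S100b to Elavl4 (left) and of Sox10 to Ret (right) against the RPS content of the diet in percent (x axis), with 1 point per mouse, the mean and the SD (n = 5 per diet) and mouse RS10_727 as a triangle. All 5 mice at 10% RPS lie below every 0% RPS mouse in both panels.

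Compared per kilobase (kb) of annotated exon, which allows levels of different genes to be set side by side, Uchl1 was the most abundant member at 9.79 ± 1.54 CPM per kb (SD, n = 20), followed by Vip at 5.76 ± 0.991. Nos1, Ret, S100b and Sox10 followed at 2.59 ± 0.531, 2.42 ± 0.35, 2.36 ± 0.509 and 2.23 ± 0.518 CPM per kb, and neighbours among these 4 did not keep their order, since the higher one was above the next in 11, 9 and 13 of 20 mice. Elavl4 at 1.35 ± 0.330 and Chat at 0.292 ± 0.077 CPM per kb came last, and each of them was below the gene before it in 20 of 20 mice. The exon length joins all annotated transcripts, so a gene expressed from a short form is placed too low. Before division by length Vip was above Uchl1, at 50.1 against 28.0 CPM. The order of these 2 thus rests on their joined exon lengths of 8693 bases for Vip and 2860 bases for Uchl1.

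The other genes of the enteric nervous system were read from 7 lists with 83 genes, of which 79 were tested. At 10% RPS 57 of the 79 had a log2 fold change below 0, with a median of -0.09, against 53.2% and a median of -0.01 over all tested genes, and 0 were called by edgeR. At 2% RPS the direction was the other way: 16 of 79 were below 0, with a median of 0.07. At 5% RPS 42 of 79 were below 0.

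The glial list followed the glial members in part. At 10% RPS 9 of its 14 genes were below 0 (median -0.10), and at 2% RPS 0 of 14 were (median 0.10). Sox2, a glial transcription factor, had -0.70 at a level under 1 CPM, with an adjusted p of 0.326. Gfap, the intermediate filament of reactive glia, was 6.05 ± 1.05 CPM at 0% RPS and 6.55 ± 0.208 CPM at 10% RPS, a log2 fold change of 0.11. Its log2 fold change was thus on the other side of 0 from that of S100b. The genes of the list with the highest CPM (not divided by length), Erbb3 at 332 CPM, L1cam at 90.2 CPM and Cnp at 44.2 CPM, had log2 fold changes of 0.10, -0.02 and 0.07, and Erbb3 is also an epithelial gene.

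Of the 18 pan-neuronal genes, 13 were below 0 at 10% RPS (median -0.13) and 1 was at 2% RPS (median 0.10). Rtn1, which encodes a reticulon of the endoplasmic reticulum of neurons, was the only gene of the 7 lists that was called in any of the 5 edgeR comparisons named above. In the trend this was 1 of the 79 list genes tested, against 2.1% of all genes, so the share was not above the background. It measured 29.2, 21.7, 21.6, 31.0 and 28.7 CPM at 0% RPS and 17.5, 27.0, 15.3, 15.3 and 10.7 CPM at 10% RPS, so that 4 mice lay below every control and RS10_727 within their range. Its slope was -0.063 ± 0.015 log2 units per percent RPS with an adjusted p of 0.0322 by edgeR, and at 10% RPS its log2 fold change was -0.63 with an adjusted p of 0.0958. DESeq2 called Rtn1 at 10% RPS too, with an adjusted p of 0.0215. The trend call was lost with the treatment label, without the 3 mice whose labels disagree, without mice RS10_721 and RS10_784, and when any of mice RS10_701, RS10_707, RS10_708, RS10_725, RS10_729, RS10_731 or RS10_784 was left out.

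By CPM, which is not divided by gene length, the 3 highest pan-neuronal genes were Stmn2, Ncam1 and Prph, which encode a microtubule regulator, a cell adhesion molecule and the intermediate filament peripherin. Their log2 fold changes at 10% RPS were -0.33, -0.19 and -0.25, and the adjusted p of Stmn2 was 0.182 by edgeR. Tubb3, the neuronal tubulin, had -0.43 (adjusted p 0.168), and Snap25, a protein of the synaptic vesicle fusion machinery, had 0.02. Without mouse RS10_727 the trend called 7 list genes, all of them falling, among them Calb2, Ncam1, Prph, Rtn1, Stmn2 and Tubb3. The trend of that fit called 6.34% of all genes.

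The lists of the neuronal classes gave small differences at 10% RPS. Of the 9 tested genes of RET and endothelin signalling 7 were below 0 (median -0.12). The endothelin-converting enzyme gene Ece1 and the RET co-receptor genes Gfra2 and Gfra1 had log2 fold changes of -0.01, 0.16 and -0.14. Of the 12 genes of inhibitory transmission 7 were below 0 (median -0.09), with 0.13 for the VIP receptor gene Vipr1, which epithelium also expresses, -0.13 for Gucy1a1, a subunit of the nitric oxide receptor, and 0.02 for the purine receptor gene P2ry1.

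Of the 12 cholinergic and excitatory genes 9 were below 0 (median -0.08), with -0.10 for the substance P precursor gene Tac1, 0.09 for the muscarinic receptor gene Chrm2 and 0.09 for the acetylcholine esterase gene Ache. Slc18a3, the vesicular acetylcholine transporter gene that lies within the Chat locus, was 3.03 ± 0.834 CPM at 0% RPS and 2.83 ± 0.931 CPM at 10% RPS. Of the 11 tested sensory and interneuron genes 9 were below 0 (median -0.14). Calb2, the calretinin gene, had -0.41 with an adjusted p of 0.152 by edgeR, the serotonin receptor gene Htr4 had -0.09, and Ddc, a decarboxylase of serotonin and dopamine synthesis that epithelial cells also express, had 0.03. Kit, Ano1 and Etv1, which mark the interstitial cells of Cajal, the pacemakers of the gut, had -0.04, -0.08 and -0.07.

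**Figure D5:**
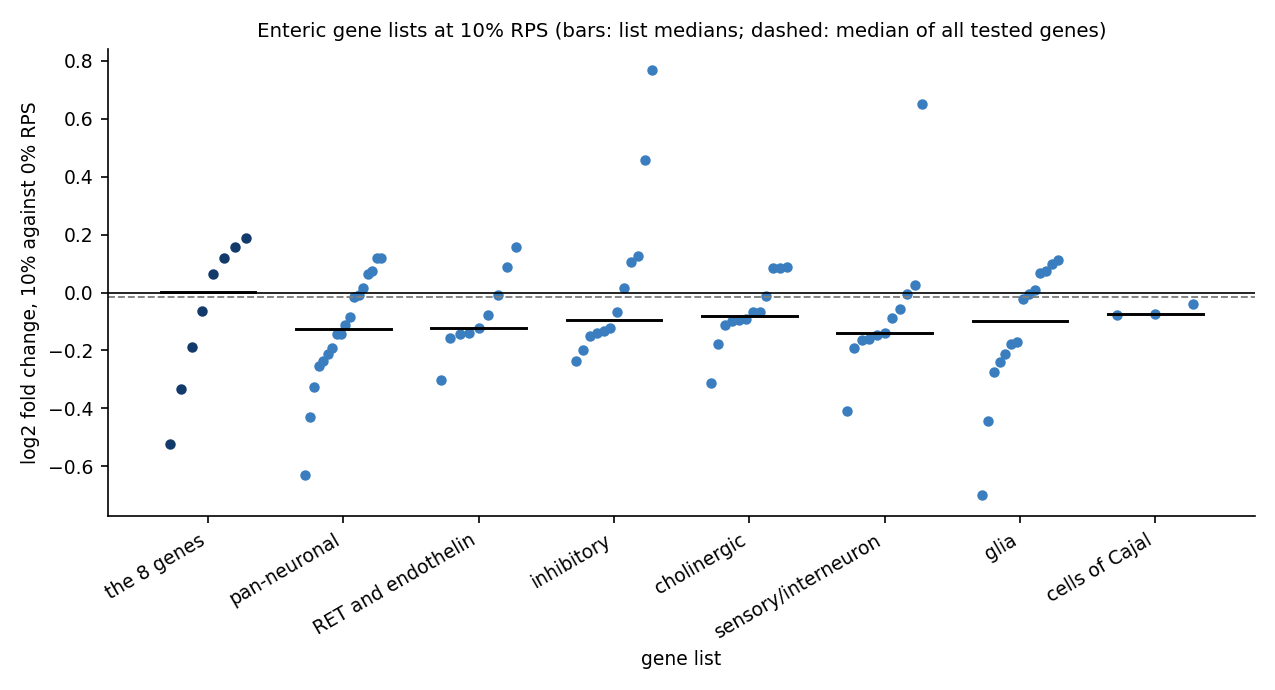
The log2 fold change at 10% against 0% RPS (y axis) of the tested genes of each enteric list (x axis, 1 point per gene), with the median of each list as a bar and the median of all tested genes as a dashed line. The medians of the 7 other lists lie between -0.14 and -0.07, and the glial list spreads from -0.70 to 0.11.

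Markers of other tissues were read from the same fit. All 8 epithelial markers were above 0 at 10% RPS (median 0.15), the smooth muscle list had a median of -0.03, and the summed level of the 8 epithelial markers ranged from 11022 to 15478 CPM at 0% RPS and from 13412 to 17350 CPM at 10% RPS. That of the smooth muscle list ranged from 7654 to 12293 CPM and from 9013 to 11170 CPM. The r across the 20 mice with the mean log2 CPM of the epithelial list was -0.54 for S100b, -0.33 for Sox10 and 0.14 for Elavl4. With the smooth muscle list it was 0.38, 0.45 and 0.00. With the smooth muscle level as a covariate in the edgeR fit, the log2 fold changes at 10% RPS were -0.54 for S100b (adjusted p 0.0991) and -0.34 for Sox10 (adjusted p 0.228). Of the enteroendocrine list, 6 of 8 genes were above 0 at 10% RPS (median 0.29), and its summed level ranged from 247 to 368 CPM in the control diet group and from 288 to 440 CPM in the group fed 10% RPS. Its r was -0.46 with S100b and -0.59 with Sox10. The 4 tested adipose genes were above 0 too (median 0.49), with a summed level of 41.5 to 67.0 CPM in the controls and 42.3 to 86.1 CPM at 10% RPS, and their r with S100b and Sox10 was -0.21 and -0.39. The part of the epithelial, enteroendocrine or adipose share in the S100b and Sox10 levels was not tested.

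The genes whose levels followed the mean of the standardised members most closely over the 20 mice, among the 15222 genes whose mean reached 1 CPM, were led by Nsg2, a neuronal endosomal protein gene, at an r of 0.92, followed by Slc7a14 (0.90), Pirt (0.90), Magee1 (0.90), the cannabinoid receptor gene Cnr1 (0.89), the neuronal kinesin gene Kif5a (0.89), Snhg11 (0.88), Snap25 (0.88) and Faim2 (0.88). The median r over the genes ranked was 0.0075. Of the top 100 genes 8 came from the 7 lists.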

How the data were processed

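RNA was isolated from the DC of 20 C57BL/6 mice, and stranded mRNA libraries, 1 per mouse, were read from 1 end. In CLC Genomics Workbench the authors trimmed bases of low quality, dropped ambiguous reads, mapped to GRCm39 and deposited the raw count of reads for every gene and mouse, without normalisation or pooling. The gene annotation, the use of strand and the treatment of reads with several matches are not given in the sources used here, so values of genes with overlapping partners (Uchl1, Nos1 and Chat) are uncertain. Within a diet no library appeared to be deposited more than once, since the chi-square per degree of freedom of the 40 pairs of mice was 9.38 or more. Pairs of mice from different diets were not compared in this way. The labels do not say whether mice shared a cage or litter. Mouse numbers are unique, and the labels give no pairing of mice across diets.

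Gene symbols and positions came from GENCODE vM39, which held 26338 of the 26619 identifiers. The filter was filterByExpr of edgeR 4.0.16 in R 4.3.3 at a minimum count of 10, which kept 17893 of 26004 genes with a count, and libraries were scaled by TMM. The test was the edgeR quasi-likelihood F-test with robust estimation in 1 fit of the 4 diets, with Benjamini-Hochberg adjustment over all tested genes. Calls required an adjusted p of at most 0.05 and, for comparisons of 2 diets, a 1.5-fold change, the thresholds that the authors applied with DESeq2. P-values set a difference or slope against the spread between these mice, which the fit estimates with information shared across genes. CPM refer to the TMM-scaled library, and a prior count of 2 was added before taking log2. Exon lengths joined all transcripts of a gene. The floor of 3 counts covers counting error only, while the 95% intervals of fold changes come from the edgeR fit and include the spread between mice.

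The alternatives were DESeq2 1.42.0, RLE scaling, no filter, estimation that was not robust, a prior count of 0.5, the treatment label, omission of the 3 mice with disagreeing labels, the 2 diets alone, the smooth muscle level as a covariate, and omission of each mouse. Omission of mice RS10_721 and RS10_784 together, the ratios between members and the TGACGTC motif were chosen after seeing the data. The members and the lists were chosen with earlier results of these data known. Apart from the 8 members, the genes named are the 3 of each list with the highest CPM, list genes called in any comparison, genes among the 10 most like the members, and 7 others (Sox2, Gfap, Tubb3, Slc18a3, Calb2, Uchl1os and Dbp) that were chosen after their values were seen. Some items that these rules name are not reported here. The procedure was tested on simulated counts.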

Additional observations from a re-analysis of the deposited data

Results flagged for a closer look

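Of the 32 combinations of member and diet, 2 held a mouse whose distance to the next value, divided by the range of its 5 mice, was above the 95% critical value of Dixon's test (0.71), against 1.6 that chance gives. Uchl1 at 10% RPS was 35.7 CPM in mouse RS10_727, with the next mouse at 25.0 CPM. Ret at 5% RPS was 21.4 CPM in mouse RS10_721, with the next mouse at 18.1 CPM. Mouse RS10_727 had the smallest library, and mouse RS10_721 had the most pancreatic transcripts and the lowest summed smooth muscle level, 6159 CPM. The part of these properties in the distant values was not tested.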

How the results depend on the processing

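The alternatives that kept all or several mice gave 280 values of member log2 fold changes and slopes, of which 271 kept their direction and their side of the threshold. The 8 that changed direction were all near 0. With the treatment label Ret at 10% RPS was -0.012 and its slope was -0.0031. Without mice RS10_721 and RS10_784, the values at 5% RPS were -0.10 for Elavl4, -0.011 for Ret, -0.10 for Vip and 0.025 for S100b. With the smooth muscle covariate the values at 5% RPS were 0.0071 for Uchl1 and 0.0058 for S100b. The slope of S100b under DESeq2, -0.058, passed the threshold.

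DESeq2 called 1 list gene at 10% RPS, and 1 member and 4 list genes in the trend, of 79 list genes, against 1.24% of all genes it tested at 10% RPS and 5.61% in the trend. By edgeR the trend called 1 list gene. The trend called 0 list genes with the treatment label, 0 without the 3 mice whose labels disagree, 0 without mice RS10_721 and RS10_784, and 2 with the smooth muscle covariate. Over all genes the treatment label reduced the trend calls from 375 to 0. DESeq2 called 973 genes in the trend and 210 at 10% RPS, where edgeR called 7.

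When each of the 20 mice was left out in turn, the members called ranged from 0 to 1 at 10% RPS, from 0 to 1 in the trend and from 0 to 1 in the test of any difference, and the list genes called ranged from 0 to 1, from 0 to 7 and from 0 to 2. The highest counts of list genes came from leaving out RS10_727. Of all genes, that fit called 1.04% at 10% RPS, 6.34% in the trend and 0.232% in the test of any difference. The call of S100b at 10% RPS and in the test of any difference came from leaving out RS10_727, and that in the trend from leaving out RS10_727 or RS10_703. Of 640 member values in these fits, 22 changed direction. At 10% RPS these were in the ranges of Elavl4 (-0.071 to 0.25), Ret (-0.039 to 0.14) and Nos1 (-0.23 to 0.024). At 5% RPS they were in those of Elavl4 (-0.10 to 0.13), Uchl1 (-0.11 to 0.015), Ret (-0.014 to 0.13), Nos1 (-0.057 to 0.12), Vip (-0.10 to 0.14) and S100b (-0.085 to 0.022). At 2% RPS it was that of Ret (-0.013 to 0.13), and among the slopes those of Elavl4 (-0.013 to 0.019), Ret (-0.0044 to 0.012) and Vip (-0.0032 to 0.0093). The causes were not tested.

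No paired analysis was possible because the labels give no cage, litter or other link between mice of different diets. Depth was lower at 10% RPS than at 0% RPS, and Chat, with as few as 23 counts in a library, is the least precise member.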

Other observations

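Dbp, a gene driven by the circadian clock, varied from 3.76 to 114 CPM among the 20 mice, and its log2 CPM had a Pearson r of -0.58 with Vip (Spearman rho -0.59), of -0.54 with Elavl4 (rho -0.45) and of -0.43 with Ret (rho -0.43), as a description over the 20 libraries. After the diet means were removed the values were -0.61, -0.55 and -0.46. The glial members had r of 0.05 (S100b) and 0.26 (Sox10) with Dbp, and -0.37 and 0.01 after the diet means were removed, and the other neuronal members had 0.21 (Uchl1), -0.12 (Nos1) and -0.21 (Chat). The hour at which each mouse was sampled is not given in the sources used here, and its part in these values was not tested.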
